A study of Mus musculus with 416 samples.

Results

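The libraries compared here are those with the most and the least alpha-globin RNA among 416 striatum libraries of Diversity Outbred mice. The members were chosen by the measured level of the paired alpha-globin genes Hba-a1 and Hba-a2, given as CPM (the gene's count scaled to a common library total) and summed. Within each generation, the top 25% of libraries by that sum were called blood-rich and the bottom 25% blood-poor. This gave 37, 29 and 36 blood-rich libraries in generations 21, 22 and 23 and as many blood-poor ones, with 76, 61 and 75 libraries between them, of 416 in all. Since alpha-globin was selected on, the alpha-globin levels below are a description without a test.

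The striatum is the input structure of the basal ganglia, and its main cells are GABAergic spiny projection neurons. Diversity Outbred mice (J:DO) descend from intercrossed inbred founder strains, so that every animal carries its own mixture of their genomes. All animals were drug-naïve, and the series recorded expression in this untreated state. RNA was depleted of ribosomal RNA and sequenced from 1 striatum library per animal. Animals in both groups had been euthanised in the same morning window, and the dissection protocol in the labels names no step that clears blood from the vessels. By labelled sex the blood-rich libraries were 47 female and 55 male, and the blood-poor libraries were 57 female and 45 male. An age is not given in the sources used here.

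Adult haemoglobin is built from alpha-globin and beta-globin chains, each of which binds a heme. Red cell precursors make both chains in great excess over other proteins, and the young red cells that enter the blood have lost their nucleus but still carry globin mRNA. In brain tissue that has not been perfused, capillaries keep their blood, so globin mRNA is widely used as a sign of blood in the sample. Low levels of globin RNA have also been described in some neurons and glia.

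The promoters of the 4 adult globin genes and of Alas2 are shown because these genes make the globin chains that define the groups and the heme they bind. Alas2 makes the first enzyme of heme synthesis in red cell precursors. Each sequence is the 200 bases upstream of the start given by RefSeq for GRCm38.p6, read 5′ to 3′ on the strand of the gene, and each of the 5 genes was matched by symbol. Capitals mark 4 motifs searched on both strands. They are TATAA (the core of the TATA box), CCAAT (the CCAAT box), CACCC (the core bound by Klf1-type factors) and GATAA (the core bound by GATA factors). A motif on the other strand is capitalised where its reverse complement stands.
Hba-a1, chr11:32283472-32283671, plus strand: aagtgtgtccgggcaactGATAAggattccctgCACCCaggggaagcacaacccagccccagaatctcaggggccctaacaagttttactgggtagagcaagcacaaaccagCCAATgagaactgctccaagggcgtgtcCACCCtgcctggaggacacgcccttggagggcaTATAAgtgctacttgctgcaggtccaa
Hba-a2, chr11:32296292-32296491, plus strand: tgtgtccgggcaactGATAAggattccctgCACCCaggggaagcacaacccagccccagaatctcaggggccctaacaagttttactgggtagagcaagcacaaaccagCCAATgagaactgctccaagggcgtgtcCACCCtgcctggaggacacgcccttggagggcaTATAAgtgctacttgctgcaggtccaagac
Hbb-bs, chr7:103827929-103828128, minus strand: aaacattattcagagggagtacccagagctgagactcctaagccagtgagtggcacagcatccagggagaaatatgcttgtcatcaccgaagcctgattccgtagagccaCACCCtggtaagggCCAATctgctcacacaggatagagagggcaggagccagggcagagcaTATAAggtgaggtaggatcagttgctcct
Hbb-bt, chr7:103813924-103814123, minus strand: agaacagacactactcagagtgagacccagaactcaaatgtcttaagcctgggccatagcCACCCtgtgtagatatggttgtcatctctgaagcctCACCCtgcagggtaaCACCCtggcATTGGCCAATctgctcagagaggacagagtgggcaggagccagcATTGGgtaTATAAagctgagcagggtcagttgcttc
Alas2, chrX:150547217-150547416, plus strand: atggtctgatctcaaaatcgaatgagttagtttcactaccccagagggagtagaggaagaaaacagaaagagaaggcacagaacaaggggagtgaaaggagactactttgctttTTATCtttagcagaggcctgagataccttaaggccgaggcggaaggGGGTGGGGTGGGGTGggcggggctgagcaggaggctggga

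The 4 globin promoters hold TATAA between 27 and 30 bases and CCAAT between 75 and 91 bases upstream of the start, while the Alas2 window holds neither. CACCC is present in all 5 windows, and in Alas2 its 3 copies stand end to end on the minus strand. GATAA is present in Hba-a1, Hba-a2 and Alas2 and absent from these letters of Hbb-bs and Hbb-bt. In Hbb-bt, a CCAAT on each strand stand side by side and form one run of capitals, and a further copy on the other strand lies 36 bases upstream. Among all 32851 RefSeq promoter windows of this length, TATAA occurs in 18.5%, CCAAT in 29.3%, CACCC in 45.5% and GATAA in 18.1%. A match is a description of the letters and does not show that a factor binds there.

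Summed alpha-globin was at least 72.5, at the median 94.5 and at most 240.8 CPM in blood-rich libraries, against 21.1, 43.6 and 62.5 CPM in blood-poor libraries. The groups differed about as much in every generation, with the blood-rich median 2.02, 2.16 and 2.03 times the blood-poor median in generations 21, 22 and 23. The level itself differed between generations: the blood-rich median was 111.02 CPM in generation 21, 90.3 in generation 22 and 84.1 in generation 23, while the blood-poor medians were 54.99, 41.8 and 41.5 CPM.

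Alpha-globin had no gap at the limits of the groups. In generation 21 the lowest blood-rich library had 94.04 CPM and the next one below it 93.94 CPM, and the highest blood-poor library had 62.5 CPM with the next one above it at 63.5 CPM. For generation 22 these pairs were 79.4 and 78.7 CPM, and 49.96 and 50.001 CPM. For generation 23 they were 72.5 and 71.6 CPM, and 46.3 and 46.8 CPM. The groups are therefore the ends of one continuous range.

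Hba-a1 and Hba-a2 were used as a sum because reads of one can be counted for the other. Their coding sequences are identical at 428 of 429 positions. Hba-a1 took under 5% of the sum in 69 blood-rich libraries (67.6%) and in 71 blood-poor libraries (69.6%), and where it took more its median share was 68.8% in blood-rich and 47.99% in blood-poor libraries. These shares fall far apart between libraries of one group, and the split between the copies is uncertain. The same holds for Hbb-bs and Hbb-bt, whose coding sequences are identical at 443 of 444 positions.

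**Figure D1:**
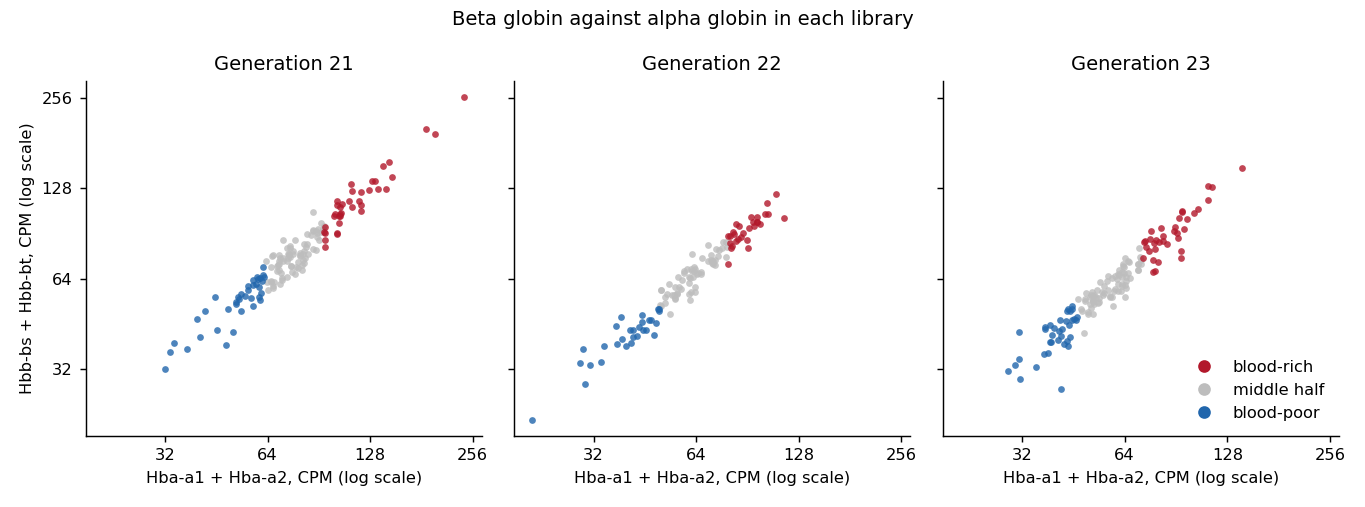
Summed beta-globin (Hbb-bs and Hbb-bt, vertical, CPM) against summed alpha-globin (Hba-a1 and Hba-a2, horizontal, CPM), both on log axes, with 1 point per library and 1 panel per generation, coloured as blood-rich, middle or blood-poor. Alpha-globin chose the groups, so they do not overlap along the horizontal axis within a panel, while on the vertical axis, which was not used, the medians were 97.3 CPM in blood-rich and 44.6 CPM in blood-poor libraries.

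Beta-globin followed the alpha-globin groups. The sum of Hbb-bs and Hbb-bt ran from 67.3 to 257.6 CPM with a median of 97.3 CPM in blood-rich libraries, and from 21.7 to 69.8 CPM with a median of 44.6 CPM in blood-poor libraries. When groups were drawn by beta-globin instead, all but 13 blood-rich libraries were again in the top 25% and all but 14 blood-poor libraries again in the bottom 25%, and 0 libraries changed ends. Beta-globin and the other red cell genes were looked at because the groups were drawn on alpha-globin, so their differences between the groups are given with standard errors and without a p-value.

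Hbb-bs, the more abundant adult beta-globin, had at least 57.7, at the median 83.99 and at most 211.6 CPM in blood-rich libraries, against 17.8, 40.2 and 60.2 CPM in blood-poor libraries. Its log2 fold change, fitted by edgeR with generation as covariate, was 1.14 ± 0.04 (SE, all libraries of both groups). All blood-rich libraries but 1 lay above the highest blood-poor one, and within each generation the groups did not overlap. Hbb-bt, the second adult beta-globin, had 4.07, 12.8 and 46.04 CPM (lowest, median and highest) in blood-rich libraries, against 2.30, 5.27 and 9.83 CPM in blood-poor libraries, a log2 fold change of 1.29 ± 0.06. Its groups overlapped somewhat more, with 85 blood-rich libraries above the highest blood-poor one.

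Among genes of heme synthesis, Alas2, the red cell form of the first enzyme, had 5.19, 6.73 and 10.2 CPM (lowest, median and highest) in blood-rich libraries, against 4.04, 5.64 and 7.34 CPM in blood-poor libraries. The log2 fold change was 0.29 ± 0.03, and 0.31, 0.24 and 0.32 in generations 21, 22 and 23. All blood-rich libraries but 6 lay above the blood-poor median, but the groups overlapped, with 32 blood-rich libraries above the highest blood-poor one. Alas1, the form of the same enzyme that all other cells use, had a log2 fold change of 0.02. The later enzymes Urod and Fech, which make the porphyrin ring and insert its iron, had 0.05 and 0.06. The median over the 10 heme synthesis genes tested was 0.03.

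In the red cell membrane, Slc4a1 (the anion exchanger band 3) had a larger fold than Alas2 but low counts, with a median of 0.243 CPM and a highest library of 0.727 CPM in blood-rich libraries, against 0.0787 and 0.306 CPM in blood-poor libraries. Its log2 fold change was 1.47 ± 0.12, and the level pooled over libraries was 0.256 CPM in blood-rich and 0.0904 CPM in blood-poor libraries. It had at least 1 library at 0 counts in either group, and the groups overlapped, with 34 blood-rich libraries above the highest blood-poor one. At these levels Slc4a1 could pass the filter on low counts through the blood-rich libraries alone, so no support is drawn from it.

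Other red cell genes near the limit of detection gave smaller ratios of the pooled level in blood-rich over blood-poor libraries, 1.71 for Trim10, 1.502 for Tspo2, 1.33 for Epb42 and 1.098 for Hemgn. Of the factors that drive red cell formation, Klf1 had a pooled ratio of 0.897, and Gata1 had 40 summed counts in blood-rich and 33 in blood-poor libraries. Of the embryonic globins, Hba-x, Hbb-bh0 and Hbb-bh2 had 0 counts in both groups, Hbb-y had 4 and 6 counts, and Hbb-bh1 had 2 and 13 counts.

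Tent5c, a poly(A) polymerase known from red cell precursors and plasma cells, had 3.10, 5.06 and 36.1 CPM (lowest, median and highest) in blood-rich libraries, against 1.97, 3.79 and 14.5 CPM in blood-poor libraries. The log2 fold change was 0.55 ± 0.08, and all blood-rich libraries but 3 lay above the blood-poor median. It was 0.48 without the single library described below. Bnip3l, which clears mitochondria from maturing red cells and is also expressed in striatal cells, had medians of 94.2 CPM in blood-rich and 94.1 CPM in blood-poor libraries (log2 fold change -0.03). Over the 17 red cell genes tested of the 30 listed, the median log2 fold change was -0.01. The others were too low to test or not in the table.

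**Figure D2:**
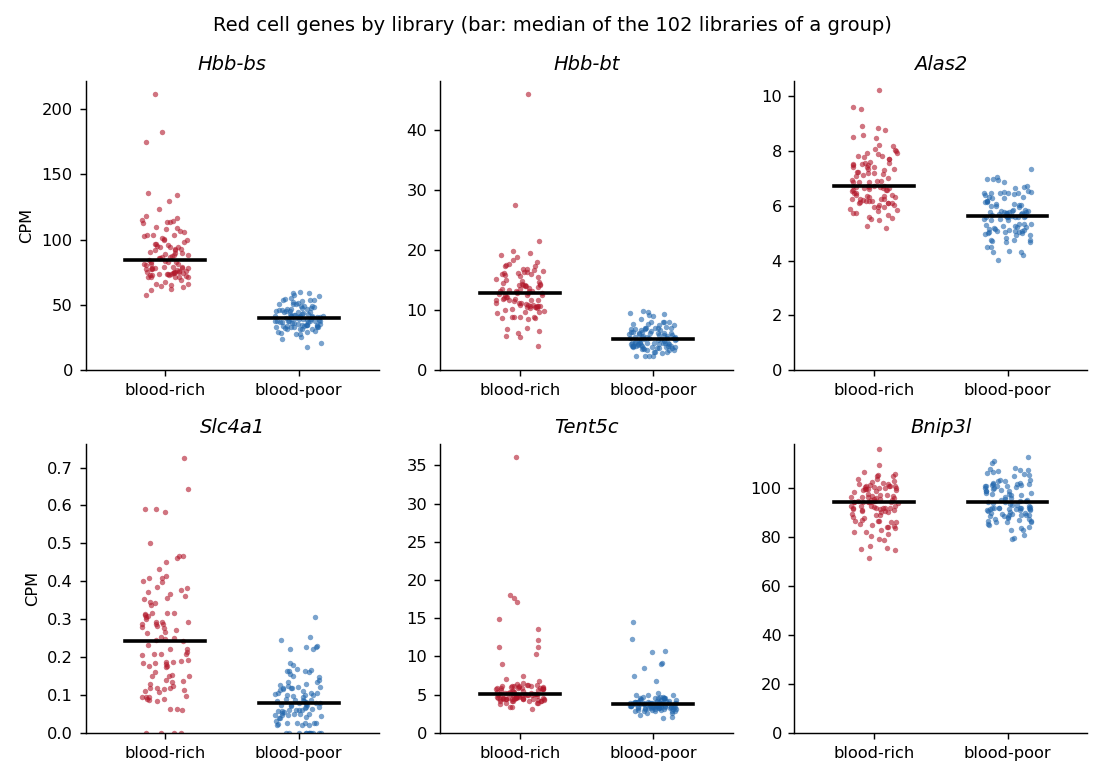
CPM of 6 genes of red cells in blood-rich (left) and blood-poor (right) libraries, with 1 point per library and a bar at the median. Hbb-bs separates the groups almost wholly, Hbb-bt and Slc4a1 differ at the median with overlap, Alas2 and Tent5c differ by less, and Bnip3l has medians close together (94.2 and 94.1 CPM).

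The libraries in neither group were used for a test on libraries that the comparison of the ends did not use. There, each gene was fitted against log2 of summed alpha-globin CPM by edgeR's quasi-likelihood test, with Benjamini-Hochberg adjustment over 22897 genes. This called 4 genes, 0.0175% of those tested, and 1585 genes had an unadjusted p under 0.05. Hbb-bs rose by 0.89 ± 0.05 (SE) in log2 level per unit of log2(alpha-globin CPM + 1). Hbb-bt rose by 1.19 ± 0.16, and both are among the 4. Their slopes are a description, since alpha-globin also ranked these libraries and beta-globin was looked at for that reason. Of the other called genes, the pseudogene Rpl21-ps15 had a slope of 3.77 (adjusted p = 0.0404, edgeR) and Armc8, part of a ubiquitin ligase complex, a slope of -0.15 (adjusted p = 0.0497, edgeR); both names come from the count of 4 and were chosen after their values were seen. Between blood-rich and blood-poor libraries Rpl21-ps15 had the opposite sign, a log2 fold change of -0.71 (adjusted p = 0.074, edgeR).

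Other red cell genes, likewise given as a description, had positive slopes in the middle libraries that did not pass the adjustment. By edgeR, Slc4a1 had a slope of 1.24 ± 0.36 (adjusted p = 0.536), Tent5c 0.71 ± 0.17 (adjusted p = 0.104) and Alas2 0.09 ± 0.08 (adjusted p = 0.819). The range of alpha-globin in these libraries is narrow, with a median of 65.2 CPM and limits of 46.8 and 93.9 CPM.

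Markers of blood cells other than red cells were set beside the globins. Across the lists of platelets, neutrophils, monocytes, B cells, T and NK cells and the macrophages of the brain's borders, 51 genes passed the filter on low counts of 98 in the table. By edgeR, DESeq2 and voom, 0 of the 51 were called in either direction, where edgeR called 4.66% of all genes tested. At that share few of 51 genes would be called, and nothing particular to these lists is read from the count. At an unadjusted p under 0.05 by edgeR, 5 were higher in blood-rich libraries and 0 lower. The median log2 fold change of the 51 was 0.0088, against 0.0048 over all genes tested.

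Neutrophil genes had the highest median among these lists, 0.22 over 9 genes, with 11 of the 20 listed genes too low to test. Summed neutrophil markers had medians of 10.48 CPM in blood-rich and 10.34 CPM in blood-poor libraries. Ngp, a protein of neutrophil granules, had a log2 fold change of 0.33 (adjusted p = 0.0675, edgeR), and S100a8, a subunit of the neutrophil protein calprotectin, had 0.38 (adjusted p = 0.139, edgeR). The medians of the platelet, monocyte, B cell, T and NK cell and border macrophage lists were 0.04, 0.02, -0.04, -0.02 and -0.00.

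Over all genes, blood-rich and blood-poor libraries were compared by edgeR's quasi-likelihood test with generation as covariate, leaving out Hba-a1 and Hba-a2. Of 22897 genes tested, 1067 (4.66%) had an adjusted p (Benjamini-Hochberg) under 0.05 and are referred to as called. Of these, 549 (2.40%) were higher in blood-rich libraries and 518 (2.26%) lower. The differences were small: the median absolute log2 fold change was 0.08 among called genes and 0.04 among all genes. Among the called genes, 14.7% differed by more than 1.2-fold, 36 of them lower in blood-rich libraries. When the test asked for a fold above 1.2, 8 genes were called. Among them were Hbb-bs, Hbb-bt, Slc4a1 and the gene models Gm12715, Gm15459, Rpl19-ps1 and Gm12918, the last 4 named after their values were seen. Slc4a1 could enter the test through the blood-rich libraries alone, as its blood-poor median was 0.0787 CPM. Red cell genes were looked at because alpha-globin drew the groups, so a call of one, here and below, is a description. The labels give each library its own animal, so the p-values measure the spread between animals of these groups. In the middle libraries, which the comparison did not use, 464 of 547 higher genes (the beta-globins left out) had a positive slope on alpha-globin and 459 of 518 lower genes a negative one, while 53.1% of all genes had a positive slope.

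Much of this count rested on 1 library. A blood-rich male library of generation 21 (replicate 26) had the highest alpha-globin of its generation, 240.8 CPM. It also had the highest sum of choroid plexus markers of all libraries, 25804 CPM against a median of 1486 CPM, and a low sum of spiny neuron markers, 8304 CPM against a median of 15849 CPM. Without it, 587 genes were called, and 586 of them were among the 1067. Leaving out each of 5 other libraries that held the highest level of a named gene gave between 894 and 1059 calls.

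The count also moved with the libraries and covariates used. Without libraries of low quality (a low total or a low correlation to the others), it came to 1.66% of the 22897 genes tested above. Those left out were 16 blood-rich and 9 blood-poor libraries, and the male library described above was among them. The count came to 1.14% of those genes without the libraries in the top 10% of a choroid plexus, ependyma, fibroblast, cortical or thalamic list. These were 35 blood-rich and 36 blood-poor libraries. With scores of 6 lists of tissues and cells as covariates, 50 genes were called. The 6 were the cortical, thalamic, choroid plexus, ependyma, fibroblast and oligodendrocyte lists, so a glial list is among them. The red cell genes Hbb-bs (1.11), Hbb-bt (1.25), Slc4a1 (1.503), Tent5c (0.40) and Alas2 (0.30) are among the 50 and are given as a description. Their log2 fold changes were close to those without the scores, except for Tent5c. In bulk tissue fewer cells of a type and less RNA per cell cannot be told apart, and how far the mix of tissues in a piece made the differences was not tested.

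**Figure D3:**
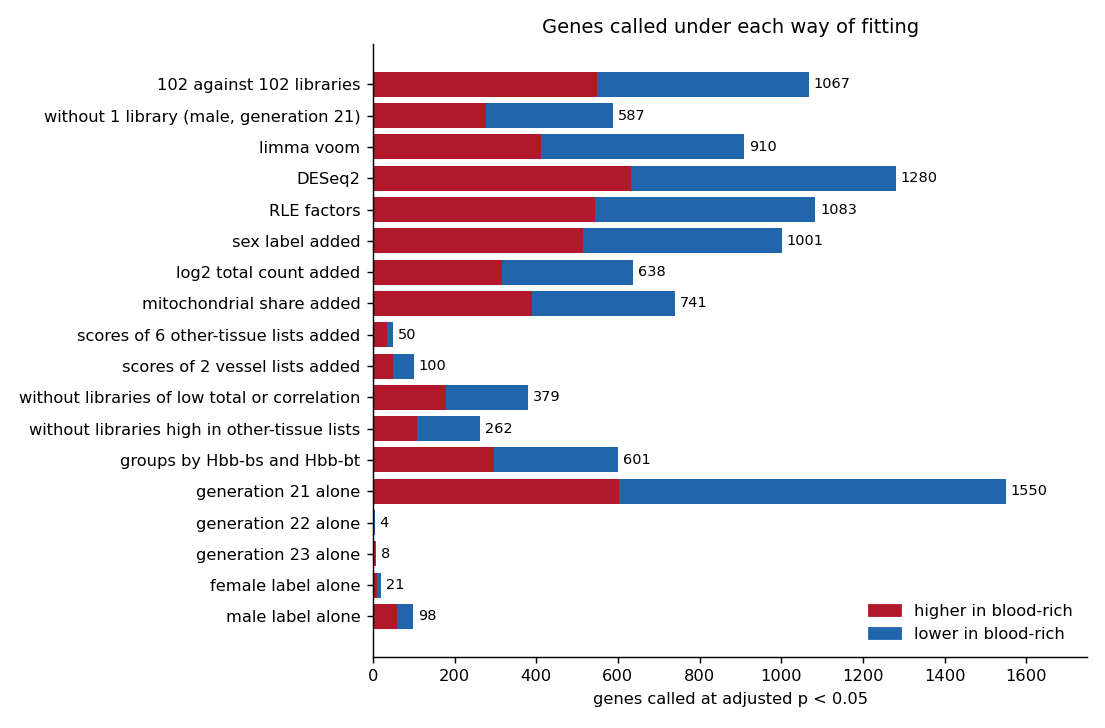
Number of genes called at an adjusted p under 0.05 in blood-rich against blood-poor libraries under each way of fitting, with genes higher in blood-rich libraries in red and lower in blue. The count was 1067 with all libraries of both groups, 587 without 1 library, 50 with 6 tissue scores, and 1550, 4 and 8 in generations 21, 22 and 23 alone.

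Of the 12 named genes with the largest higher fold change, 10 had their highest library in that same male library of generation 21. Slc13a4, a sulfate transporter of choroid plexus and meninges, had medians of 1.19 CPM in blood-rich and 0.999 CPM in blood-poor libraries, with highest libraries of 185.3 and 53.5 CPM. The log2 fold change of 0.97 (adjusted p = 0.0459, edgeR) was 0.62 without the library (adjusted p = 0.241, edgeR). Lbp, which binds bacterial lipopolysaccharide, gave 0.81 with it (adjusted p = 0.0456, edgeR) and 0.53 without it (adjusted p = 0.229, edgeR). In both genes the call was lost without 1 library, and the medians of Slc13a4 lay close together while its highest libraries lay far apart.

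Mmp2, a matrix metalloproteinase of vascular and meningeal fibroblasts, had medians of 1.21 CPM in blood-rich and 1.09 CPM in blood-poor libraries and highest libraries of 56.3 and 9.42 CPM. Its log2 fold change was 0.80 (adjusted p = 0.00737, edgeR), and 0.50 without the library (adjusted p = 0.0741, edgeR). Drc7 (a dynein regulator of motile cilia), Slc29a4 (a monoamine transporter), Thbs1 (thrombospondin 1), Rdh5 (a retinol dehydrogenase), Vwa5b1 and Mycbpap had log2 fold changes between 0.42 and 0.71, and each lost its call without the library. The folds without it were nearly as large for Thbs1 (0.52, against 0.62 with it) and Vwa5b1 (0.37, against 0.44), and smaller for Slc29a4 (0.39, against 0.69), Drc7 (0.46, against 0.71), Rdh5 (0.29, against 0.45) and Mycbpap (0.27, against 0.42).

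The calls of Tent5c, Hs3st3b1 and Cenps remained without that library, 3 of the 12, where Tent5c is a red cell gene and its call a description. Hs3st3b1, an enzyme that modifies heparan sulfate, had 0.346, 2.26 and 7.64 CPM (lowest, median and highest) in blood-rich libraries, against 0.158, 0.995 and 7.63 CPM in blood-poor libraries (log2 fold change 0.54, adjusted p = 0.0277, edgeR). Its median differed between the groups while its ranges overlapped almost wholly. Cenps, a component of the inner kinetochore, had medians of 1.46 and 1.35 CPM (log2 fold change 0.51, adjusted p = 0.0263, edgeR).

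Among genes taken by the naming rule, which leaves out gene models and low levels, those lower in blood-rich libraries had smaller fold changes than those higher. Of the 12 with the largest decreases by the naming rule, with log2 fold changes between -0.54 and -0.13, 10 were still called without the male library, and 2 with the scores of 6 tissue lists. Rgs17, a regulator of G-protein signalling, had 50.0, 88.1 and 123.3 CPM (lowest, median and highest) in blood-rich libraries against 56.4, 96.5 and 131.6 CPM in blood-poor libraries (log2 fold change -0.15, adjusted p = 0.00177, edgeR). Its lowest, median and highest library were each a little lower in blood-rich libraries, and the ranges overlapped widely.

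Nup35, a nuclear pore protein, had medians of 15.8 CPM in blood-rich and 17.8 CPM in blood-poor libraries (log2 fold change -0.17, adjusted p = 0.00267, edgeR). Pcdh11x, an X-linked protocadherin, had medians of 64.3 and 73.4 CPM (-0.15, adjusted p = 0.0084, edgeR), and the zinc finger gene Zfp459 had medians of 2.20 and 2.43 CPM (-0.29, adjusted p = 0.0084, edgeR). Snhg11, a neuronal long non-coding RNA, had medians of 997 and 1150 CPM (-0.18, adjusted p = 0.0341, edgeR). Samd11 had the largest fold of the 12, -0.54 (adjusted p = 0.0442, edgeR), with medians of 2.28 and 2.89 CPM, and its call was lost without 1 blood-poor male library of generation 21 (replicate 37), at -0.51 (adjusted p = 0.0607, edgeR). In the middle libraries the slopes on alpha-globin were -0.01 for Nup35, -0.17 for Pcdh11x, 0.37 for Zfp459, 0.06 for Snhg11 and 0.42 for Samd11. Ptchd4, Zfp366, Cdh7, Papolb and Zfp995 were also among the 12.

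Vessels, which carry the blood, were looked at next. Of 25 endothelial genes tested, edgeR, DESeq2 and voom called 0, while 5 were higher and 0 lower at an unadjusted p under 0.05 by edgeR. With 4.66% of all genes called, few of 25 would be, and nothing particular to the list is read from the 0 calls. Summed endothelial markers had medians of 476 CPM in blood-rich and 463 CPM in blood-poor libraries, and the list's median log2 fold change was 0.02. Cldn5, the tight junction protein of brain endothelium, had 0.11 (adjusted p = 0.0703, edgeR). Of 5 genes of endothelial activation, Icam1, the adhesion molecule for leukocytes, rose by 0.22 (adjusted p = 0.0355, edgeR). Without the male library it had 0.20 (adjusted p = 0.0725, edgeR), and DESeq2 called 0 of the 5. Of 22 pericyte and smooth muscle genes, Pdgfrb, the receptor that marks pericytes, rose by 0.09 (adjusted p = 0.0231, edgeR) with a list median of 0.03, and stayed called without the male library (0.08, adjusted p = 0.0423, edgeR).

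Of 22 fibroblast and meningeal genes, 6 were called higher and 0 lower, against 2.40% of all genes tested called higher. Their median log2 fold change was 0.23. The type I collagen chain Col1a1 had medians of 3.37 CPM in blood-rich and 2.92 CPM in blood-poor libraries (log2 fold change 0.34, adjusted p = 0.00235, edgeR). The GABA and taurine transporter Slc6a13 rose by 0.29 (adjusted p = 0.00893, edgeR), the type III collagen gene Col3a1 by 0.31 (adjusted p = 0.0327, edgeR) and the proteoglycan gene Bgn by 0.22 (adjusted p = 0.0204, edgeR). Without the male library of generation 21, 3 of the 22 were called, and 0 with the scores of 6 tissue lists, of which fibroblasts are 1.

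Choroid plexus and ependyma line the ventricle beside the striatum. Choroid plexus genes had a list median of 0.82 over 17 genes, the highest of the lists other than the beta-globins. Of these, 1 gene was called, Lbp, and 0 without the single library, where the median was 0.55. All 17 had a positive log2 fold change, and 15 were higher and 0 lower at an unadjusted p under 0.05 by edgeR. DESeq2 called 8 of the 17 higher. In the middle libraries 16 of the 17 had a positive slope on alpha-globin, with a median of 2.63. By edgeR, 14 of these 17 slopes had an unadjusted p under 0.05 and 0 were called. The summed markers had medians of 1501 CPM in blood-rich and 1487 CPM in blood-poor libraries, with highest libraries of 25804 and 10272 CPM. Enpp2 (autotaxin) and Kcnj13 (a potassium channel), both abundant in choroid plexus, had log2 fold changes of 0.62 and 0.69 with adjusted p of 0.0755 and 0.0725 (edgeR). Of 17 ependymal genes, 5 were called higher and 0 lower, where 2.40% of all genes tested were called higher. Among the 5 were the cilia genes Tekt1 (0.40), Tekt4 (0.31), Dynlrb2 (0.32) and Dnah11 (0.34), and 0 of the 17 were called without the single library. Without it these 4 had 0.30, 0.26, 0.26 and 0.28 (adjusted p of 0.103, 0.0506, 0.0741 and 0.0927, edgeR), and the list median was 0.18, against 0.21 with it.

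**Figure D4:**
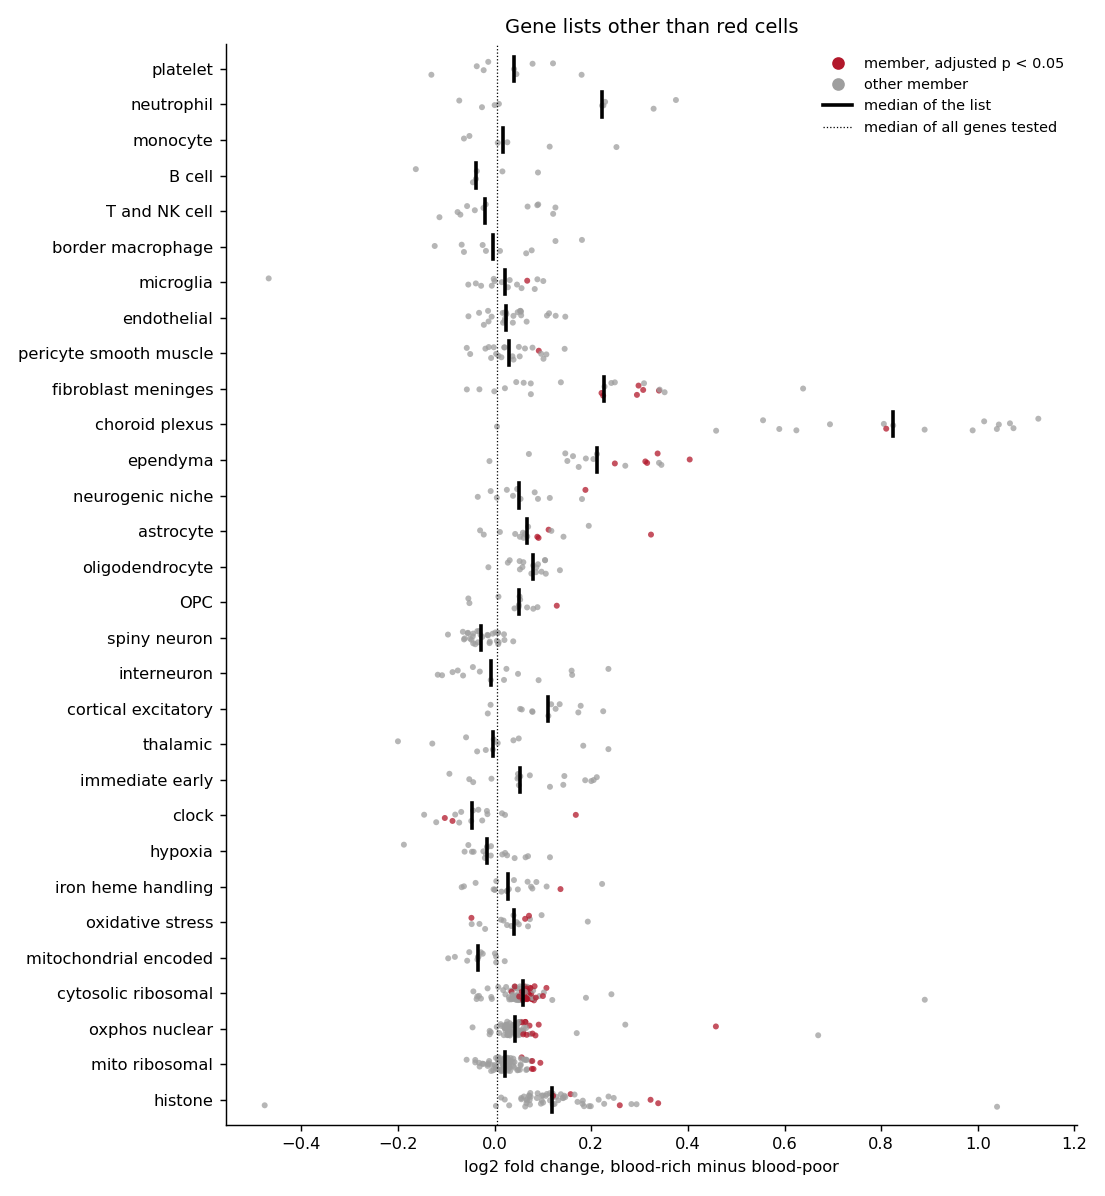
Log2 fold change of blood-rich over blood-poor libraries for each tested member of gene lists other than those of red cells (points, red where called), with the median of the list as a bar and the median of all genes as a dotted line. Among the lists drawn, choroid plexus has the median farthest from 0 (0.82) with 1 of 17 members called, while cytosolic ribosomal protein genes lie close to 0 (0.06) with 34 of 87 called.

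Astrocyte genes rose in 4 of 17 cases and fell in 0, where 2.40% of all genes tested were called higher. The list's median log2 fold change was 0.07. Gfap, the intermediate filament of reactive and white matter astrocytes, had 22.99, 53.5 and 179.8 CPM (lowest, median and highest) in blood-rich libraries, against 17.8, 45.4 and 125.5 CPM in blood-poor libraries (log2 fold change 0.32, adjusted p = 0.00791, edgeR). The groups overlapped over most of their range. The folate enzyme Aldh1l1 rose by 0.11 (adjusted p = 0.00679, edgeR), Mlc1 of the astrocyte endfeet by 0.09 (adjusted p = 0.00737, edgeR) and the gap junction gene Gja1 by 0.09 (adjusted p = 0.0165, edgeR). Without the single library 4 genes were called again, and 0 with the scores of 6 tissue lists.

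Among the remaining glial lists, Sall1 was called among 16 microglial genes (0.07, adjusted p = 0.0431, edgeR), and had the same fold to 2 decimals without the single library (0.07, adjusted p = 0.0548, edgeR). C1ql1 was called among 12 genes of oligodendrocyte precursors (0.13, adjusted p = 0.0417, edgeR), and likewise had 0.13 without that library (adjusted p = 0.0606, edgeR). Of 17 myelin and oligodendrocyte genes, edgeR, DESeq2 and voom called 0, with 4 at an unadjusted p under 0.05 by edgeR and a median log2 fold change of 0.08. These glial lists are short, and with 4.66% of all genes called, nothing particular to them is read from so few calls.

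Genes of the protein synthesis machinery formed the group with most calls. Of 87 cytosolic ribosomal protein genes, 34 were called higher and 0 lower, against 2.40% of all genes tested called higher. That share varied with exon length, as given below. In the shortest bin of protein-coding genes 4.94% were called higher and 0.324% lower. Their median log2 fold change was 0.06. Rpl7a had 87.5, 102.9 and 158.8 CPM (lowest, median and highest) in blood-rich libraries, against 77.9, 97.9 and 131.6 CPM in blood-poor libraries (0.08, adjusted p = 0.000571, edgeR). Rpl18 (0.08, adjusted p = 0.0021) and Rpl32 (0.07, adjusted p = 0.00235, all edgeR) moved by like amounts. These shifts are far smaller than the range of either group.

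By generation, 25 of the 87 ribosomal protein genes were called in generation 21 alone and 0 in generation 22 or generation 23 alone. Without the single library 28 were called, without libraries of low quality 27, and with the scores of 6 tissue lists 7. In the middle libraries, 66 of the 87 had a positive slope on alpha-globin, with a median of 0.04. Many ribosomal protein genes have processed pseudogenes of near-identical sequence, and how the authors' counting shared reads between them is not given in the sources used here.

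Nuclear genes of oxidative phosphorylation were called higher in 11 of 79 cases and lower in 0, against 2.40% of all genes tested called higher. Their median log2 fold change was 0.04. Among the 11 were Ndufs8 (0.08, adjusted p = 0.0103), Ndufb11 (0.09, adjusted p = 0.0125) and Atp5j2 (0.06, adjusted p = 0.0189, all edgeR). Without the single library 5 were called, and 0 without libraries of low quality. Replication-dependent histone genes were called higher in 5 of 60 cases, such as Hist1h2bn (0.32) and Hist2h3c2 (0.26), and in 2 without the single library. Mitochondrial ribosomal protein genes were called higher in 5 of 77 cases, such as Mrps16 and Mrpl40 (0.08 each), and in 1 without it. The histone and mitochondrial ribosomal counts are small ones to set against the 2.40% of all genes called higher, or the 4.94% in the shortest bin of exon length. None of these lists was compared with genes of like length. Of the 13 mitochondrially encoded genes 0 were called by edgeR, DESeq2 or voom, 0 had an unadjusted p under 0.05 by edgeR, and the median was -0.03. With 4.66% of all genes called, few of 13 would be, and nothing particular to them is read from the 0 calls.

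Striatal neuron genes were set beside these. Across 46 genes of spiny projection neurons and interneurons, edgeR, DESeq2 and voom called 0, where edgeR called 4.66% of all genes, and 3 were lower and 0 higher at an unadjusted p under 0.05 by edgeR. Summed spiny neuron markers had medians of 15845 CPM in blood-rich and 15931 CPM in blood-poor libraries, and the lowest libraries had 3864 and 3780 CPM. Of 25 genes of cortical excitatory and thalamic neurons, edgeR called 0 with 0 at an unadjusted p under 0.05, voom called 0 and DESeq2 called 1 lower. With 4.66% of all genes called, few of 46 or 25 would be, and nothing particular to these lists is read from the calls.

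Genes that respond to iron and heme were of interest because red cells carry both. Of 20 genes of iron and heme handling, Cp, the ferroxidase ceruloplasmin, was called higher (0.14, adjusted p = 0.0489, edgeR), and had 0.12 without the single library (adjusted p = 0.095, edgeR). Of 17 genes of oxidative stress, Gpx4, which reduces lipid peroxides, rose by 0.06 (adjusted p = 0.0334), Gsr, which restores glutathione, by 0.07 (adjusted p = 0.0336), and Gclm, a subunit of the enzyme that makes its precursor, had -0.05 (adjusted p = 0.0416, all edgeR). Without the single library Gsr stayed called, while Gpx4 had 0.05 (adjusted p = 0.0606, edgeR) and Gclm -0.05 (adjusted p = 0.0644, edgeR). These are 1 of 20 and 3 of 17 genes, small counts to set against the 4.66% called among all genes.

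Circadian clock genes were called in 3 of 16 cases, with and without the single library. With the scores of 6 tissue lists 0 were called, and 0 without the libraries high in a list of another tissue. A count of 3 is small to set against the 4.66% called among all genes. Nr1d2, a repressor of the clock, had medians of 153.9 CPM in blood-rich and 164.4 CPM in blood-poor libraries (log2 fold change -0.10, adjusted p = 0.00235, edgeR), and Hlf, a clock-driven transcription factor, had 247.1 and 260.5 CPM (-0.09, adjusted p = 0.0192, edgeR). Nfil3, which opposes factors such as Hlf, rose by 0.17 (adjusted p = 0.0263, edgeR). Across 100 genes of immediate early, glucocorticoid, heat shock, hypoxia, interferon and MHC lists, edgeR called 0, with 19 higher and 7 lower at an unadjusted p under 0.05. Of the 15 MHC genes among them, 9 were higher and 0 lower at that limit. The MHC median log2 fold change was 0.10, and 0.01 with the scores of 6 tissue lists. Cd74 had 0.59 (adjusted p = 0.0588, edgeR), and 0.45 without the single library (adjusted p = 0.18, edgeR). DESeq2 called 2 of the 100 higher, both of the MHC list, and 1 lower, and voom called 1 higher.

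The called genes differed by direction in class and in length. Protein-coding genes were 519 of the 549 higher genes (94.5%) and 450 of the 518 lower genes (86.9%), against 70.04% of all genes tested. Among protein-coding genes the summed exon length had a median of 3290 bases for higher genes, 8100 bases for lower genes and 4298 bases for all 16038 tested. Their levels differed too, with median log2 CPM of 3.84 for higher, 6.53 for lower and 3.93 for all genes.

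Split into 4 equal bins of exon length, from up to 2683 bases to 6649 bases and above, protein-coding genes had median log2 fold changes of 0.03, 0.02, 0.00 and -0.01 from short to long. Along the same bins the share called higher was 4.94%, 3.44%, 2.99% and 1.57%, and the share called lower 0.324%, 1.17%, 2.62% and 7.11%. The order of the medians was the same in each generation, steepest in generation 21 (0.0491 to -0.0117 from the shortest to the longest bin), then generation 22 (0.0235 to -0.0056) and generation 23 (0.0185 to -0.0096). It was also the order of the median slopes in the middle libraries, 0.0391 to -0.0065. Exon length moved with the difference between the groups, and its part in the calls was not tested.

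**Figure D5:**
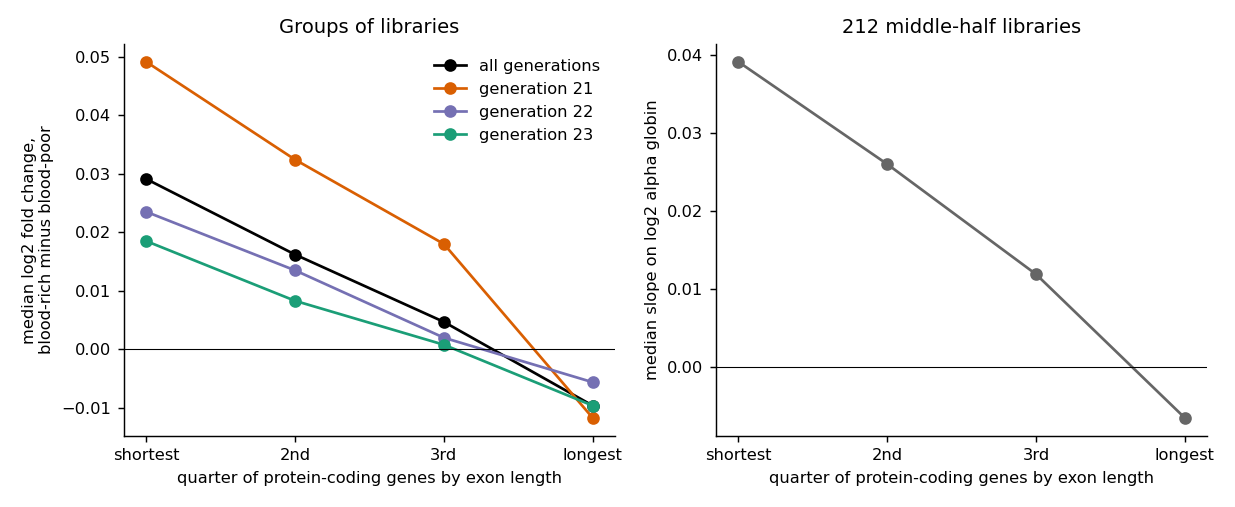
Median log2 fold change of blood-rich over blood-poor libraries (left, for all generations and each generation) and median slope on log2 alpha-globin in the middle libraries (right), by 4 bins of summed exon length of protein-coding genes. Each line runs down from the shortest to the longest bin, from 0.03 to -0.01 for all generations and from 0.0391 to -0.0065 for the slope.

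The difference between blood-rich and blood-poor libraries was not the same in all generations. An interaction test by edgeR called 604 genes (2.64% of 22897), and 18.4% of these were among the 1067. Of the 582 with a value in each generation, 536 had their largest absolute difference in generation 21. Their median absolute log2 fold change was 0.13 in generation 21, 0.03 in generation 22 and 0.02 in generation 23, against 0.08, 0.05 and 0.04 over all genes. Tardbp, the RNA-binding protein TDP-43, had log2 fold changes of -0.16, 0.04 and 0.04 in the 3 generations, and Luc7l3, a splicing factor, had -0.23, 0.03 and 0.02. Hbb-bs had 1.17, 1.14 and 1.13 (interaction adjusted p = 0.962, edgeR), so that its interaction did not pass the threshold.

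Taken alone, generation 21 gave 1550 calls, generation 22 gave 4 and generation 23 gave 8. The 4 of generation 22 were Hbb-bs, Hbb-bt, Alas2 and Gm12715, and generation 23 added Tent5c, Zadh2, Cers6 and Gm7598. Slc4a1 was too low to test in generation 22 or generation 23 alone. Its blood-rich median there was 2.54 and 3.20 times the blood-poor median. These lists were read after their values were seen, and the red cell genes in them are a description, since alpha-globin drew the groups. An interaction with labelled sex called 10 genes (0.0437%) by edgeR, with 1564 at an unadjusted p under 0.05, while voom called 0 with 1204 at an unadjusted p under 0.05.

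Total counts ran from 20331813 to 77458299 with a median of 43516366 over all libraries. They averaged 43950689 ± 6215656 (SD) in blood-rich and 42491936 ± 7070947 in blood-poor libraries (difference 1458753, two-sided permutation test within generations, p = 0.0977, adjusted p = 0.237 over 3 measures). The mitochondrially encoded share averaged 4.54% and 4.63% (p = 0.237, adjusted p = 0.237, permutation test), and the share labelled female was 46.1% and 55.9% (p = 0.206, adjusted p = 0.237, permutation test). None of the 3 passed the threshold. Xist did not match the labelled sex in 8 blood-rich and 10 blood-poor libraries, and without all such libraries 606 genes were called.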

How the data were processed

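The 416 libraries, each from 1 drug-naïve Diversity Outbred mouse, were striatum RNA depleted of ribosomal RNA and sequenced as 100 bp pairs with a stranded kit, per the labels' protocols. The authors deposited estimated counts per Ensembl gene ID, with 23.8% of values not whole and no normalization stated. The aligner, counting tool and genome build are not given in the sources used here, so multi-mapped reads between gene copies may be shared in ways not known. Symbols came from GENCODE M21 (46005 of 46517 IDs, 98.9%). The groups, gene lists and named genes were chosen with earlier results of these data known.

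Counts were rounded, which moved 0.005% of the total. CPM here are counts divided by the column total, without further scaling. Within each generation, libraries were ranked by summed Hba-a1 and Hba-a2 CPM, and the top and bottom 25% compared (102 libraries each, with 212 between). Genes were kept by filterByExpr (minimum count 10), leaving 22897. They were scaled with TMM factors and fitted by edgeR 4.0.16 (quasi-likelihood, robust) under R 4.3.3 with generation as covariate, and called where the p adjusted by Benjamini and Hochberg was under 0.05. Tests are two-sided throughout. The pipeline was tested on simulated data, where it called 18 of 5800 unchanged genes. It recovered 52% of genes changed by 1.1-fold, 78% at 1.2-fold, 88% at 1.5-fold and 100% at 2-fold. Smaller folds were not simulated. Alternatives were limma 3.58.1 (voom), DESeq2 1.42.0, other scaling and filters, added covariates, other group limits and fits with libraries left out. The fits without the top 10% of other-tissue lists and the fits without the library highest in a named gene were added after seeing the data. Libraries of low quality had a total under 0.5 times the median, or correlated with the others by over 4 scaled median absolute deviations less than is usual, and Xist was set against the labelled sex at 100 CPM.

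Genes were named by rule: measured globin, heme and red cell genes, the 12 called genes per direction with the largest fold change (with a regular symbol, a mean level of 1 log2 CPM or more and 1 sign in every generation), up to 4 members per list by p, and 4 per interaction. Some genes that meet the rule are not reported here. Lists are described by counts and medians, with no test of a list. Promoter letters came from RefSeq tables for GRCm38.p6. Genome coordinates there belong to that build, and no coordinates are given for the counts.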

Additional observations from a re-analysis of the deposited data

Results flagged for a closer look

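The blood-rich minus blood-poor difference was not the same in the 3 generations for 604 genes by edgeR's test of the interaction. The 4 genes with the smallest p among those with a regular symbol follow. Tardbp, an RNA-binding protein, had log2 fold changes of -0.16, 0.04 and 0.04 in generations 21, 22 and 23 (adjusted p = 7.28e-07, edgeR). Gt(ROSA)26Sor, a non-coding RNA locus active in most cells, had -0.29, 0.07 and 0.09 (adjusted p = 1.09e-06, edgeR). The splicing-related genes Luc7l3 and Pnisr had -0.23, 0.03 and 0.02 (adjusted p = 1.53e-06, edgeR) and -0.22, 0.02 and 0.02 (adjusted p = 4.81e-06, edgeR). In all 4 the difference was negative in generation 21 and slightly positive in the others. What sets generation 21 apart was not tested.

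By labelled sex, 10 genes had a different blood-rich minus blood-poor log2 difference. Prkcd, a protein kinase C of thalamic and other neurons, had -0.91 in libraries labelled female and 1.28 in those labelled male (adjusted p = 0.0248, edgeR). Its medians were 5.09 CPM in blood-rich and 5.20 CPM in blood-poor libraries, with highest libraries of 909 and 545 CPM. Tnnt1, slow skeletal troponin T, had -0.91 and 0.88 (adjusted p = 0.0488, edgeR). The highest level of both genes lay in 1 blood-rich male library of generation 21 (replicate 35), with 92.2 CPM of Tnnt1. Without it, the log2 fold change over both sexes was -0.66 for Prkcd, against 0.18 with it, and -0.65 for Tnnt1, against -0.08 with it (adjusted p = 0.0165 and 0.0108 without it, edgeR). The interaction was not refitted without this library, and how far the values in males rest on it was not tested. With voom, 0 genes were called, and 1204 had an unadjusted p under 0.05.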

How the results depend on the processing

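No paired analysis was possible because replicate numbers only name libraries. As a share of the 22897 genes, the calls were 4.66%. They were 2.79% with log2 total count added, 0.437% with 2 vessel scores, 0.218% with 6 tissue scores, 2.62% with groups drawn on beta-globin, 8.29% with all libraries split at the median, 2.65% without libraries whose Xist did not match the label, 1.66% without libraries of low quality, 1.14% without those high in other-tissue lists and 0.0349% against a fold of 1.2. Generation 22 alone gave 0.0175%, generation 23 alone 0.0349%, libraries labelled female 0.0917% and those labelled male 0.428%. Leaving out single libraries gave 2.56% to 4.63%. Other tools, scaling, filters, covariates and group limits gave 3.24% to 6.25%, and generation 21 alone 6.77%. The middle-library count of 4 became 4896 over all libraries, which include both groups. The interaction with sex gave 10 calls by edgeR and 0 by voom, which had 1204 genes at an unadjusted p under 0.05. With the top and bottom 12.5%, total counts differed by 2831353 (adjusted p = 0.0452, permutation test).

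Of 1478 values for 61 called genes, 751 kept call and direction, 713 kept direction and lost the call, and 14 reversed. Slc13a4 was -0.082 with vessel scores, -0.1838 without libraries of low quality and -0.0385 without those high in other-tissue lists. Lbp was -0.0703 and -0.1157, and Slc29a4 -0.0046 and -0.0799, under the first 2 of these settings. Drc7 was -0.0867 without libraries of low quality. Vwa5b1 and Mycbpap were -0.0268 and -0.006 with 6 scores. Luc7l3 was 0.0319 and 0.0236, and Pnisr 0.0164 and 0.0164, in generations 22 and 23 alone. The cause was not tested. The described red cell genes moved by more than the spread between libraries in 5 values, 4 of them with libraries split at the median. Slc4a1 rests on few counts per library, which limits its precision.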

Other observations

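Several called gene models with folds above 2 were chosen for this paragraph after their values were seen. The processed pseudogenes Gm12715 and Gm15459 had medians of 0.302 and 0.134 CPM in blood-rich libraries and 0.256 and 0.129 CPM in blood-poor libraries, although they were called lower (log2 fold change -2.98 and -2.36). Above 5 CPM lay 0 blood-rich and 3 blood-poor libraries for Gm12715, and 0 and 2 for Gm15459, with highest libraries of 95.6 and 79.3 CPM. The remaining libraries of both groups lay at or below 5 CPM.

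CT010467.1, an annotated ribosomal RNA, had medians of 216.7 CPM in blood-rich and 189.2 CPM in blood-poor libraries and highest libraries of 19873 and 85055 CPM (log2 fold change -1.12, adjusted p = 0.0393, edgeR), so the sign of the fitted fold and of the medians differ. Scara5, a ferritin receptor, had medians of 0.1222 and 0.1251 CPM and highest libraries of 17.7 and 5.12 CPM (log2 fold change 1.01, adjusted p = 0.0443, edgeR). In both genes the medians lay close together and the highest libraries far apart.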
